A study of Mus musculus with 4 samples.

Results

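The genes for the histone proteins were described in heart ventricles of mouse embryos with and without the histone deacetylase HDAC2, an enzyme that removes acetyl groups from histone tails. The members were all probe sets of the Affymetrix MOE430v2 array that name a single gene whose symbol marks it as a gene for histone H1, H2A, H2B, H3 or H4 or for a variant of these; genes of the major histocompatibility complex, whose symbols look alike, were left out. This gave 40 probe sets for 28 genes, of 45037 probe sets other than controls on the array and 18193 genes that it names singly. Of the 40, 15 probe sets for 10 genes belong to replication-dependent histones, 13 probe sets for 9 genes to replacement histones, and 12 probe sets for 9 genes to histones known from the germ line.

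Wild-type embryos (WT) were compared with HDAC2-deficient littermates (KO) at embryonic day 17.5, in a cross of C57BL/6 and SV129, with 2 arrays per genotype. Each WT array took RNA from the pooled ventricles of 2 embryos and each KO array from those of 3, so pool size cannot be told apart from genotype. The allele behind the deficiency, and whether HDAC2 was missing from all cells, are not given in the labels. These labels do not say whether a pool shared embryos with another, so a p-value below reflects no more than the differences among these 4 pools, part of which may be technical. Ventricles hold several cell types, and fewer cells of a type cannot be told apart from less RNA per cell.

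Histones package DNA. Pairs of H2A, H2B, H3 and H4 form the core of a nucleosome and a linker histone H1 binds the DNA where it enters and leaves. Replication-dependent histones lie in gene clusters, are made in S phase to cover the newly copied DNA, and have messages that mostly end in a stem-loop in place of a poly(A) tail. Replacement histones such as H2A.Z, H3.3 and macroH2A are made from polyadenylated messages through the whole cell cycle, also in cells that no longer divide, and take the place of the core histones at chosen sites. H2A.X was grouped with them here and was moved to the other class in an alternative. Late fetal ventricles still hold many dividing cells, and heart muscle cells mostly stop dividing after birth. Standard Affymetrix labelling starts from the poly(A) tail, so the replication-dependent messages reach such an array mainly where they carry a tail or an inner stretch of A; how much of each message was captured here was not tested.

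Promoter sequences of 4 members described below are shown so that the layout of both classes can be read, 2 replication-dependent genes (H1f2, H2ac19) and 2 replacement genes (H2az2, Macroh2a1). Each is the 250 bases before the gene's start in the RefSeq annotation of mouse build GRCm38.p6, written 5′ to 3′ on the gene's strand, with capitals at matches on either strand to CCAAT (the CCAAT box), TATAAA (the TATA box), GGGCGG (the GC box) or AAACACA (the box known from H1 genes). H1f2 lies on the plus strand at chr13:23738557-23738806, H2ac19 on the minus strand at chr3:96240375-96240624, H2az2 on the minus strand at chr11:6444444-6444693 and Macroh2a1 on the minus strand at chr13:56135551-56135800.
H1f2: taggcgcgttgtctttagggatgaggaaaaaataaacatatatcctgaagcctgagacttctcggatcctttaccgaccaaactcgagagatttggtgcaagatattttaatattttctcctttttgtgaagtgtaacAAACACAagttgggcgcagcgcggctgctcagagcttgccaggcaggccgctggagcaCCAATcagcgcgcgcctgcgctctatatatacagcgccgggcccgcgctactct
H2ac19: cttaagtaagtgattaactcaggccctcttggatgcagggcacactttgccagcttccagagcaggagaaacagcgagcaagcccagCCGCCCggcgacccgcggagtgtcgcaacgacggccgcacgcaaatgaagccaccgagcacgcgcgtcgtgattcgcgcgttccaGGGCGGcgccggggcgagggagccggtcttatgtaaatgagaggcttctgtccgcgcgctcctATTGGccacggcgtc
H2az2: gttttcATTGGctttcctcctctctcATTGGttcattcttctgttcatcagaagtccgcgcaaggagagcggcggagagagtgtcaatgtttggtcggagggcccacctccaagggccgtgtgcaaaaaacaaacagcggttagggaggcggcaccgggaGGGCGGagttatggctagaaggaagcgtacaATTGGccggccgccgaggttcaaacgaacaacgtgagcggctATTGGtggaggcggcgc
Macroh2a1: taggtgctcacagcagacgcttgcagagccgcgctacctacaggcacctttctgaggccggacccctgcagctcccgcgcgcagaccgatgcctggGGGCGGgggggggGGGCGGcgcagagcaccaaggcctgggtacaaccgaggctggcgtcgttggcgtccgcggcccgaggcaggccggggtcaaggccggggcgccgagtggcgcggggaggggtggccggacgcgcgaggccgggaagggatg

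A window of this kind was found for 10 of the 13 member genes that could be tested. CCAAT was present in 4 of the 4 replication-dependent windows and 3 of the 6 replacement windows, against 33.8% of 32536 mouse gene windows of this length. GGGCGG was present in 1 of 4 and 5 of 6 of these windows, against 33% of all windows. TATAAA was present in 1 of 4 and 0 of 6, against 12.3%, and AAACACA in H1f2 alone, against 6.25%. The TATAAA match was in H2bc22, on the opposite strand and 212 bases before the start of the gene. Only the exact 6 letters were searched, so related letters such as tatatata near the end of the H1f2 window were not marked. These counts therefore do not say which genes have a working TATA box. In H1f2 the AAACACA match starts 112 bases and the CCAAT match 54 bases before the start of the gene. The H2az2 window holds 4 CCAAT matches, while the Macroh2a1 window holds none and has a GC content of 74.8%, against a median of 52.4% over all windows. These matches are descriptions of letters and not evidence of binding.

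The value of a probe set is its MAS5 signal, a brightness on a linear scale that the authors had scaled to the same trimmed mean, 150.0, on every array. MAS5 also calls each probe set Present, Marginal or Absent from the contrast between matching and mismatching probes. Between 42.4% and 43.8% of probe sets were Present per array, and the correlation of log2 signals was 0.983 between the WT arrays, 0.981 between the KO arrays and 0.965 to 0.972 across genotypes. The source field of the KO samples also carries the word for wild type, so Hdac2 was read first: probe set 1449080_at read 451.4 and 424.7 on the WT arrays and 0.3 and 0.2 on the KO arrays, with every Hdac2 probe set Absent on both KO arrays. Of 10 cardiomyocyte markers, 10 were Present on all arrays, with a summed signal of 103101 to 109249. Their differences were negative for 6 and positive for 4, and 0 were called. Nkx2-5, one of the dimmer ones, was lower in KO without overlap, at 1059 and 884.8 against 832.2 and 739.5. Of 12 skeletal muscle markers, 12 were Present on both WT arrays and 4 on both KO arrays, with summed signals of 13312 and 12383 for WT, with 1268 and 1265 for KO, and 10 of the 12 passed the test as lower in KO. Of 5 bone and cartilage markers, 4 were Present on both WT arrays and 0 on both KO arrays, with summed signals of 513 and 491 against 84 and 87. Of the 4 tested, 3 were called lower in KO, and Acan, at -0.37 ± 0.26, was not called. Summed signals of fibroblast markers were 13445 and 13936 against 10952 and 11592, with 2 of 6 called lower in KO, Col1a1 and Col1a2, which code for the chains of type I collagen. Of these 6, 4 differences were negative and 2 positive. Pdgfra was higher in KO without overlap, at 208.3 and 245.3 against 290.3 and 361.8, and was not called. Macrophage markers summed to 1110 and 1231 against 960 and 940, with 0 of 4 tested called. Erythroid markers summed to 713 and 604 against 774 and 775, and of 4 tested, 2 differences were positive and 2 negative. The embryonic globin Hbb-y was called higher, but it was dim, at 22.6 and 11.8 for WT against 58.8 and 57.3 for KO. It was Absent on the second WT array. Epor was lower in KO at -0.72 ± 0.33, with overlapping groups, and was not called. Summed signals of endothelial markers spanned 2187 to 2502 over the 4 arrays. No marker of these lists was at 0.

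No histone gene passed the test between the genotypes. A probe set was tested when it was Present on both arrays of at least 1 genotype, with limma on log2 signal and Benjamini-Hochberg adjustment over all 19065 probe sets that qualified; differences are given as KO minus WT in log2 units with their standard error, and 0.05 was the threshold for the adjusted p. Of the 40 histone probe sets, 19 for 13 genes were tested and 0 were called, while 256 of 19065 probe sets, or 1.34%, were called over the whole array. Those were 73 higher and 183 lower; without the first KO array they were 222 and 428, without the second KO array 48 and 184, and without the first WT array 53 and 110, with 0 histones called each time. At an unadjusted limma p under 0.05 there were 3 histone probe sets, all lower in KO, which is 15.8% of the 19 against 15.5% of all tested. The WT and KO signals did not overlap for 9 of the 19, or 47.4%, against 47.5% of all tested.

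The histone differences were small. Of the 19, 12 were negative and 7 positive, with a median of -0.057 (all tested probe sets: 0.014), and their median size was 0.18 against 0.19 over all tested. The 95% confidence interval lay within a 2-fold change in both directions for 17 of the 19 and within a 1.5-fold change for 9, so a change beyond these sizes lay outside the intervals of these probe sets, and smaller ones were not resolved with 2 arrays per group.

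**Figure D1:**
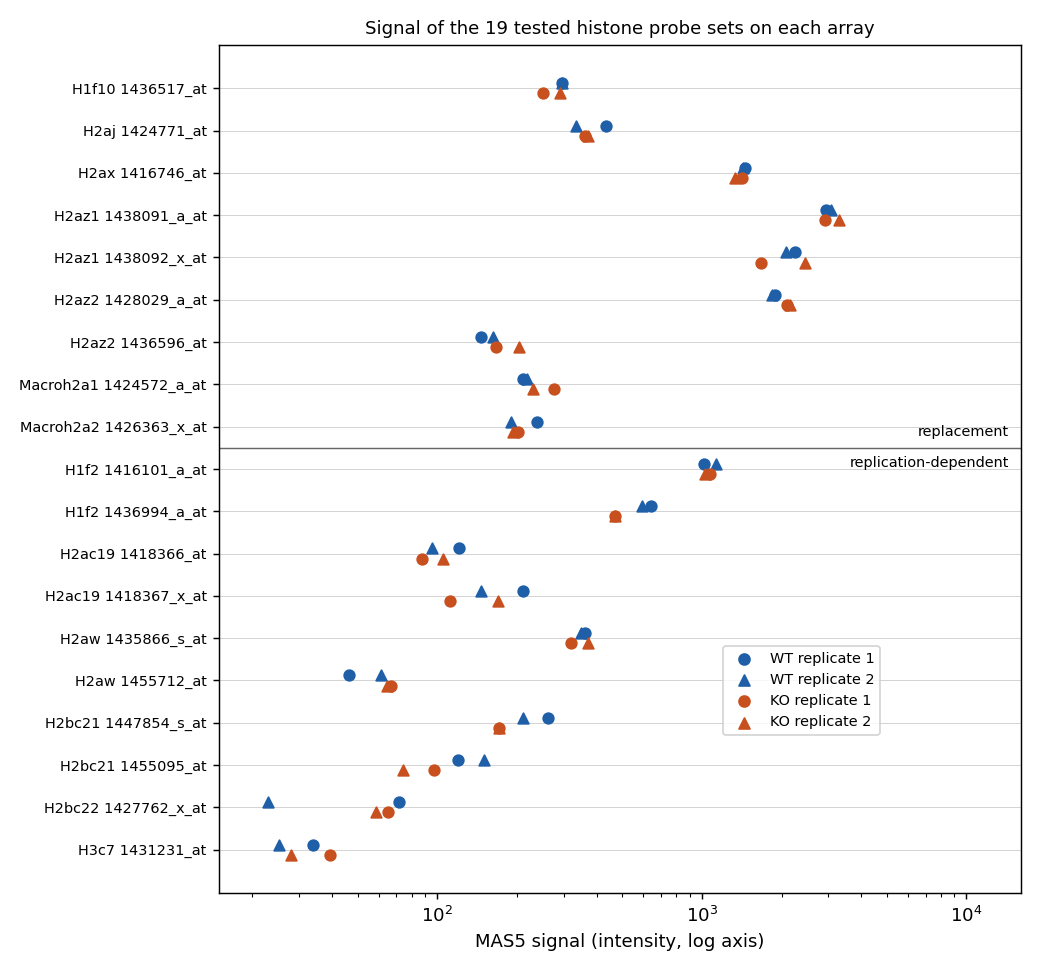
MAS5 signal (log axis) of the 19 tested histone probe sets on each of the 4 arrays, with WT in blue and KO in orange and a circle for replicate 1 and a triangle for replicate 2. For most probe sets the points of both genotypes lie close together; WT and KO did not overlap for 9 of the 19.

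Linker histones compact nucleosome arrays. H1f2 (H1.2), a replication-dependent linker histone, had 2 tested probe sets that gave different pictures. Probe set 1436994_a_at had WT signals of 642.7 and 594.4 beside KO signals of 468.8 and 467.8. Both KO arrays lay below both WT arrays, the difference was -0.40 ± 0.13 (SE, n = 2 arrays per group), and WT was 1.32-fold above KO. The unadjusted p from limma was 0.00738 and the adjusted p 0.156, the smallest of any histone probe set, and the call was not made. Probe set 1416101_a_at, the brighter of the pair, gave signals of 1014 and 1129 for WT, with 1074 and 1025 for KO. Its groups overlapped and its difference was -0.028 ± 0.11, with a 95% interval from -0.27 to 0.22.

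The ratio of the brighter to the dimmer H1f2 probe set on the same array was 1.58 and 1.90 for WT, with 2.29 and 2.19 for KO. Array quality moved in the same order: the ratio of the 3′ to the 5′ actin control probe sets, which rises as RNA or labelled product gets shorter, was 1.85 and 2.32 for WT, with 2.75 and 2.42 for KO, and that for Gapdh 0.84 and 0.95 against 1.18 and 1.01. The part of this difference between arrays in the H1f2 results was not tested. The other genes with 2 tested probe sets did not share the whole order. For H2az1 the ratio was lowest, 1.3, on the first WT array and highest, 1.75, on the first KO array. For H2ac19 and H2aw it was highest on the first WT array, 1.75 and 7.8, and lowest on the first KO array, 1.27 and 4.78. H2bc21 and H2az2 followed neither order. A further H1f2 probe set and the only H1f4 probe set did not qualify for the test; H1f4, another clustered linker histone, measured 9.0 and 3.9 on the WT arrays and 2.0 and 1.8 on the KO arrays. H1f10, a linker histone made outside S phase, had WT signals of 296.2 and 296.8 beside KO signals of 250.6 and 290.8. Its KO signals were lower without overlap, at -0.14 ± 0.15 (limma adjusted p 0.711), and it was called Present on the KO arrays only.

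**Figure D2:**
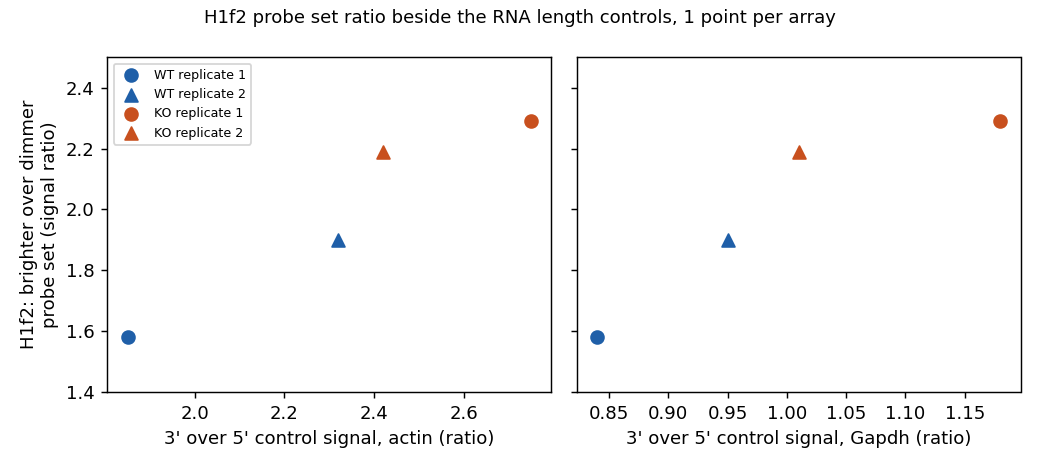
Signal of the brighter H1f2 probe set over that of the dimmer on each of the 4 arrays, against the 3′ to 5′ signal ratio of the actin and the Gapdh control probe sets. The array with the lowest control ratios has the lowest H1f2 ratio, 1.58, and the array with the highest has the highest, 2.29.

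Among the replication-dependent core histones, H2bc21, a gene for H2B in the smaller histone cluster, had the most negative difference, without passing the test. Its probe set 1455095_at gave signals of 120.2 and 149.9 for WT, with 96.8 and 74.3 for KO. Both KO arrays lay below both WT arrays, by -0.66 ± 0.22 with a 95% interval from -1.14 to -0.18, or 1.58-fold in favour of WT. The limma p was 0.0108 before and 0.185 after adjustment. A brighter probe set of the same gene, 1447854_s_at, measured 262.4 and 210.6 on the WT arrays and 170.4 and 170.5 on the KO arrays. Here too the groups did not overlap, and the difference was -0.46 ± 0.17 with an adjusted p of 0.230. These probe sets read the same gene in the same RNA and are not separate evidence. Without the first WT array the brighter probe set differed by -0.31, and without the second by -0.62. The skeletal muscle and the bone and cartilage markers called lower in KO above, Col1a1 and Col1a2, and the lower macrophage sums moved the same way. The fibroblast marker Pdgfra moved the other way. The part of these markers in the lower H2bc21 and H1f2 signals was not tested.

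For the other clustered core histones the genotypes overlapped, apart from a dim H2aw probe set. H2ac19, a gene for H2A in the same cluster, had WT signals of 211.0 and 146.5 beside KO signals of 111.7 and 169.3 at 1418367_x_at, with overlapping groups and a difference of -0.35 ± 0.23 (limma adjusted p 0.487). That difference was -0.054 without the first KO array and -0.091 without the first WT array, and -0.65 and -0.62 without the second ones. Its dimmer probe set 1418366_at gave 120.3 and 95.1 against 87.8 and 105.3, and -0.15 ± 0.22. H2aw, another H2A gene, gave signals of 360.2 and 350.4 for WT, with 321.0 and 370.6 for KO at its bright probe set, which also overlapped, at -0.043 ± 0.14. Its dim probe set 1455712_at gave 46.2 and 61.1 against 67.1 and 64.5, higher in KO without overlap at 0.31 ± 0.27 (adjusted p 0.616), so the probe sets of H2aw differed in sign.

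H2bc22, another H2B gene, had the highest difference of all members, 0.61 ± 0.42, and the least certain. Its signal was 71.8 and 22.9 for WT, with 65.1 and 58.6 for KO, with a 95% interval from -0.30 to 1.52 and a limma adjusted p of 0.512. One WT array lay above and the other below both KO arrays. The probe set was Absent on both WT arrays and qualified for the test through the KO arrays only. Without the second WT array the difference was -0.22. H3c7, a clustered H3 gene and the only one of that family that could be tested alone, measured 33.8 and 25.3 on the WT arrays and 39.4 and 27.9 on the KO arrays, overlapping at 0.18 ± 0.37. H2bc18, H3c4 and H3c11 did not qualify for the test, with signals of at most 59.0.

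Over the 10 tested replication-dependent probe sets, 7 differences were negative and 3 positive, between -0.66 and 0.61, with a median of -0.098. That median was -0.22 without the second KO array and -0.27 without the second WT array, and -0.036 with 1 probe set per gene. Their signals were lowest on the first KO array in 4 of 10 and highest on the first WT array in 5 of 10. Relative to each probe set's mean over the arrays, the median deviation was 0.21 and 0.024 on the WT arrays and -0.13 and 0.0033 on the KO arrays, so the second array of each genotype lay close together and the first arrays apart. The median within-group standard deviation was 0.20 for this class, against 0.12 over all tested probe sets.

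**Figure D3:**
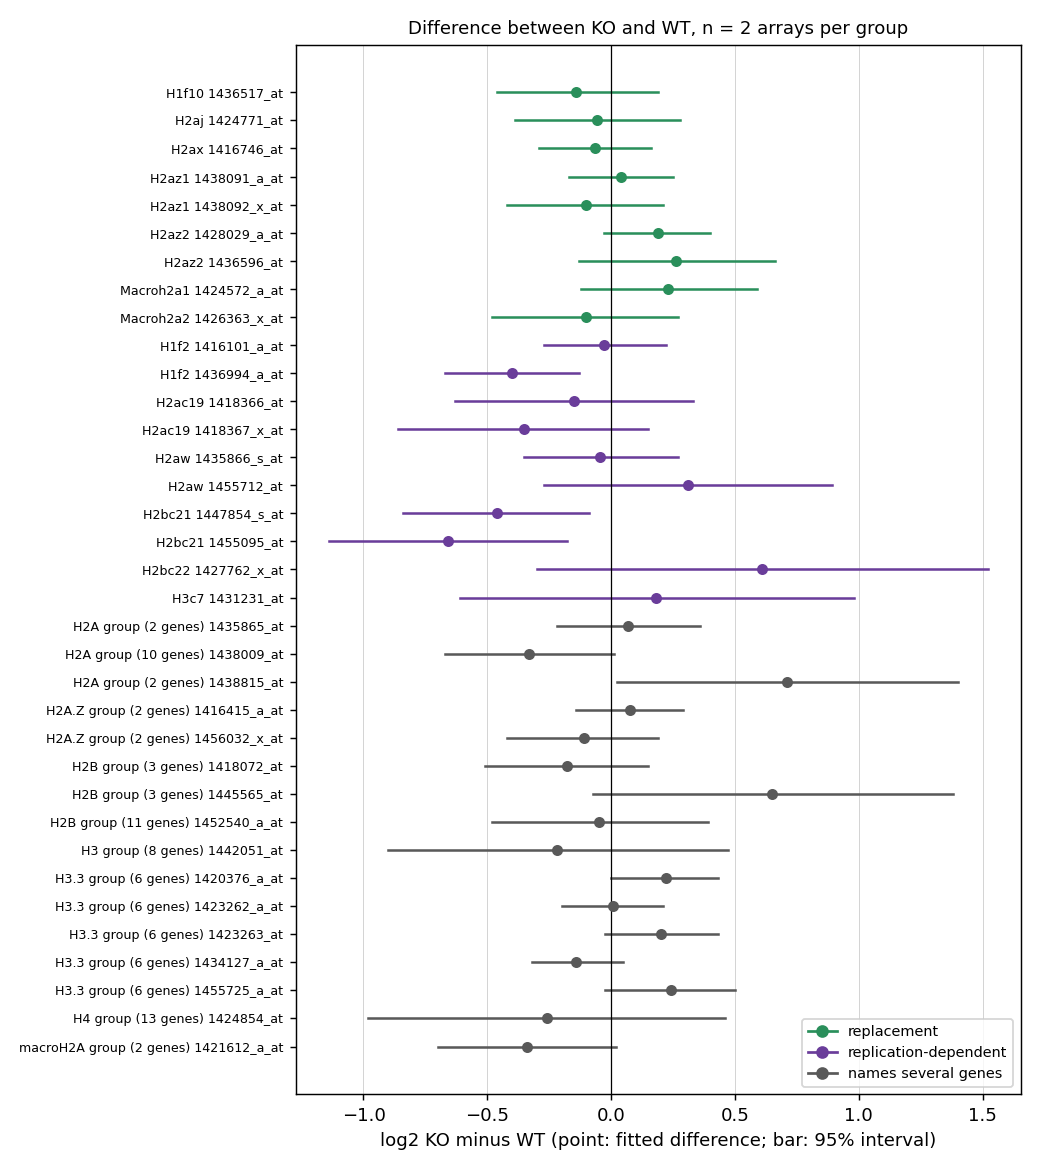
Difference in log2 signal, KO minus WT, with its 95% confidence interval from limma (n = 2 arrays per group), for the 19 tested histone probe sets and the 16 tested probe sets that name several genes including a histone. The adjusted p was 0.156 or more for every one. The interval lies within a 1.5-fold change for 2 of the 10 replication-dependent and 7 of the 9 replacement probe sets.

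Replacement histones read by probe sets that name 1 gene differed little between the arrays, and none passed the test. Over their 9 tested probe sets the differences ran from -0.14 to 0.26, with 5 negative and 4 positive, a median of -0.057 and a median within-group standard deviation of 0.071. The median was 0.10 without the first KO array and 0.060 without the first WT array, so it had no settled sign. The groups did not overlap in 5 of the 9, or 55.6% against 47.5% of all tested, the smallest limma adjusted p was 0.388, and the 95% interval stayed within a 1.5-fold change for 7.

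H2A.Z, the variant found around the starts of active genes, is made from H2az1 and H2az2. H2az1 had WT signals of 2940 and 3083 beside KO signals of 2922 and 3285 at 1438091_a_at. The groups overlapped, and the difference was 0.041 ± 0.099 with a 95% interval from -0.17 to 0.25. Its second probe set, 1438092_x_at, gave 2255 and 2085 against 1666 and 2452, with both extremes in the KO group, and -0.10 ± 0.15. H2az2 gave signals of 1889 and 1838 for WT, with 2089 and 2150 for KO at 1428029_a_at. Both KO arrays lay above both WT arrays, by 0.19 ± 0.099 or 1.14-fold, with a limma p of 0.0817 before and 0.388 after adjustment. A dimmer H2az2 probe set, 1436596_at, gave 146.0 and 162.0 against 167.1 and 203.7, also without overlap, at 0.26 ± 0.18 (adjusted p 0.513).

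H2ax, the variant that is phosphorylated beside DNA breaks, measured 1457 and 1428 on the WT arrays and 1420 and 1337 on the KO arrays. KO lay lower without overlap by a small step, -0.066 ± 0.11, with a 95% interval from -0.29 to 0.16. H2aj, an H2A variant encoded outside the clusters, had WT signals of 435.7 and 333.4 beside KO signals of 361.4 and 371.5, where the WT arrays enclosed the KO arrays, at -0.057 ± 0.16.

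MacroH2A variants carry a large extra domain and are abundant on the inactive X chromosome. Macroh2a1 gave signals of 210.8 and 219.0 for WT, with 276.6 and 230.7 for KO. Both KO arrays lay above WT, by 0.23 ± 0.16 with a limma adjusted p of 0.517 and a 95% interval from -0.12 to 0.59. Macroh2a2 measured 237.4 and 189.4 on the WT arrays and 201.5 and 193.4 on the KO arrays, overlapping, at -0.10 ± 0.17 (adjusted p 0.820). A brighter probe set, 1421612_a_at, names both Macroh2a2 and Macroh2a3 and gave 356.3 and 374.7 against 338.1 and 245.6. It was lower in KO without overlap, at -0.34 ± 0.17 (limma adjusted p 0.35).

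The H3.3 genes H3f3a and H3f3b could not be tested through probe sets of their own, which gave signals of 60.0 to 93.5 and 29.0 to 47.4 and were Present on 0 and 2 of the 4 arrays. Of the germ-line genes, 0 of 12 probe sets qualified for the test and 10 were Present on no array; these genes were H1f6, H1f7, H1f8, H2al2a, H2al3, H2ap, H2bfm, H2bl1 and Macroh2a3. The 10 that were Present on no array had signals of 0.2 to 33.1.

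Many histone genes are so alike that a probe set reads several of them, and 28 further probe sets name several genes including a histone. Of these, 16 were tested and 0 were called, with 8 lower and 8 higher in KO. Among the higher ones, 1438815_at, 1445565_at (0.65 ± 0.34) and 1435865_at were Present on both KO arrays but not on both WT arrays. They qualified for the test through the KO arrays only, where they were higher, so the filter in part set their direction. An unadjusted p under 0.05 was found for 1 of the 16, against 15.5% of all tested, and groups that did not overlap for 7 of the 16, against 47.5%. H3.3 was measured here: 5 probe sets name H3f3a and H3f3b together with related genes and pseudogenes. At 1434127_a_at the signals were 8528 and 8304 for WT, with 7297 and 8029 for KO, lower without overlap at -0.14 ± 0.086. At 1420376_a_at they were 2040 and 2086 for WT, with 2282 and 2514 for KO, higher without overlap at 0.22 ± 0.10 (limma adjusted p 0.322). Of the 5, 4 were higher and 1 lower, from -0.14 to 0.24, so probe sets for the same group of genes differed in sign.

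The brightest shared probe set for clustered H2A, 1438009_at, names 10 H2A genes. Its signal was 5842 and 4528 for WT, with 3359 and 4994 for KO, with the highest value on the first WT array and the lowest on the first KO array, and the groups overlapped. The difference was -0.33 ± 0.16, with a 95% interval from -0.67 to 0.011 and a limma adjusted p of 0.337. For H2B, 1452540_a_at, which names 11 genes, had WT signals of 259.8 and 238.9 beside KO signals of 190.6 and 305.2, where the KO arrays enclosed the WT arrays, at -0.047 ± 0.20. For H4, 1424854_at, which names 13 genes, gave 35.6 and 61.2 against 40.6 and 37.4, at -0.26 ± 0.34. The probe set with p under 0.05, 1438815_at for H2ac18 and H2ac19, gave signals of 29.3 and 28.4 for WT, with 48.0 and 46.6 for KO; it was Absent on both WT arrays, and at 0.71 ± 0.32 (p 0.0434, adjusted 0.306) it ran opposite to both H2ac19 probe sets above.

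The genes that serve the histones were examined through 3 lists, reading 1 probe set per gene. With all arrays in the fit and genotype alone as the term, limma called 0 of their genes. For the list of DNA replication and S phase genes this did not hold without the first KO array. That fit rests on 1 KO array, so its calls are not counted here. Of 22 tested genes for histone mRNA processing and transcription, 17 differences were positive and 5 negative with a median of 0.084, which was 0.19 without the first KO array and 0.16 without the second WT array. At an unadjusted p under 0.05 there was 1, or 4.55% against 15.5% of all tested. That was Ncbp1, a subunit of the complex that binds the cap of messages, with signals of 279.3 and 345.2 for WT, with 443.7 and 455.4 for KO. KO lay above WT without overlap, at 0.53 ± 0.15 (limma adjusted p 0.109). Ccne2, a cyclin E that drives entry into S phase, gave 149.0 and 132.7 against 165.0 and 211.1, without overlap, at 0.41 ± 0.19 (adjusted p 0.323). Slbp, which binds the stem-loop of replication-dependent histone messages, gave 450.1 and 446.6 against 505.3 and 593.9, also without overlap, at 0.29 ± 0.14 (adjusted p 0.325). Npat, which turns on the clustered histone genes in S phase, differed by 0.087 ± 0.18. Among the 5 negative differences were those of Lsm11, -0.33 ± 0.22 with overlapping groups, and Hinfp, -0.20 ± 0.22 without overlap.

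Of 36 tested genes for histone chaperones and exchange, 24 differences were positive and 12 negative with a median of 0.13, which was 0.077 without the second KO array. At an unadjusted p under 0.05, 7 were higher and 1 lower, or 22.2% against 15.5% of all tested. Ep400, the ATPase of a complex that exchanges histone variants, measured 257.9 and 324.1 on the WT arrays and 421.6 and 383.8 on the KO arrays, without overlap, at 0.48 ± 0.16 (limma adjusted p 0.170). Nap1l1, a chaperone of H2A and H2B, gave 1180 and 1232 against 1502 and 1493, without overlap, at 0.31 ± 0.11 (adjusted p 0.181). Chaf1b, a subunit of the complex that places H3 and H4 on newly made DNA, gave 92.6 and 93.8 against 136.3 and 138.6, at 0.56 ± 0.20 (adjusted p 0.201). The 1 lower gene was Mcm2, which is also in the S phase list below. Its signals were 757.3 and 966.4 against 660.9 and 650.2, at -0.38 ± 0.13 (limma adjusted p 0.198).

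Since the clustered histones are made in S phase, genes for DNA replication and S phase were read on the same arrays. Of 39 tested, 26 differences were positive and 13 negative with a median of 0.15, which was 0.078 without the first WT array. Among them 6 were higher and 2 lower at an unadjusted p under 0.05, or 20.5% against 15.5% of all tested. Pola2, a subunit of the polymerase that starts each DNA strand, had WT signals of 209.3 and 197.6 beside KO signals of 150.9 and 107.2, lower without overlap at -0.68 ± 0.20 (limma adjusted p 0.126). Mcm3, a subunit of the replicative helicase, gave 508.2 and 481.8 against 592.9 and 701.3, higher without overlap at 0.38 ± 0.13 (adjusted p 0.194). Mcm2, of the same helicase, differed by -0.38 ± 0.13, so the subunits did not differ in one direction. Pcna, the clamp that holds the polymerase on DNA, gave 2120 and 2344 for WT, with 2403 and 3098 for KO. It was higher without overlap at 0.29 ± 0.12 (limma adjusted p 0.275).

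The median deviation of the S phase genes was -0.10 and -0.021 on the WT arrays and 0.017 and 0.13 on the KO arrays. The highest signal was on the second KO array for 22 of 39 genes, against 5793 of all 19065 tested probe sets. The replication-dependent histones had another order of arrays, with the highest median deviation on the first WT array and the highest signal there for 5 of 10 probe sets. The relation between the S phase genes and the histone signals was not tested.

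**Figure D4:**
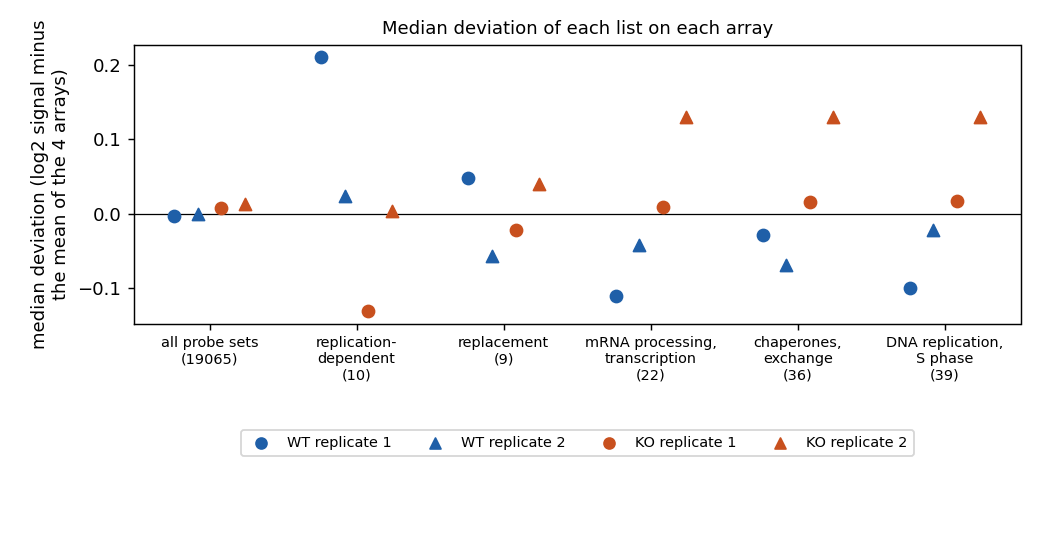
Median deviation in log2 signal from each probe set's mean over the 4 arrays, for all tested probe sets, for both histone classes and for the 3 lists of genes that serve histones or DNA replication. The replication-dependent histones range from 0.21 on the first WT array to -0.13 on the first KO array, while the 3 lists are highest, at 0.13, on the second KO array.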

How the data were processed

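Transcripts were measured on 4 one-colour Affymetrix arrays, 2 WT and 2 KO. The deposited values are MAS5 signals, an intensity per probe set; the submitters' processing notes name MAS5 without a version. Per the file headers, each signal has a detection p-value and a call, of which the call was used. The deposited table of the whole series held the same signals on all 4 arrays (tolerance 0.051). Genes were named from the platform annotation, in which 34945 probe sets name 1 gene, 932 several and 9160 none listed. Of those that name 1 gene, 34741 had that gene in RefSeq's GRCm38.p6 table. Older names in the gene lists were matched through the synonyms of that table. Each array was scaled to its 2% trimmed mean, signals of 0 were set to 0.1, and log2 values were fitted with limma 3.58.1 (lmFit, eBayes with a variance trend) in R 4.3.3. The script was tested on simulated data. The remaining steps used Python 3.11.15. The number of arrays limits the precision.

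Values on all arrays are given for the brightest tested probe set of each replacement gene, for replication-dependent genes with an unadjusted p under 0.05, for the 3 largest differences each way per class, and for the 2 smallest p of each related list. Other genes were named after their values were seen. The members and all lists were chosen with earlier results of these data known. Alternatives covered the scaling, an offset of 16 or 64, the detection filter, the variance model, a replicate block, each array left out, the choice of probe sets, and H2ax in the other class.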

Additional observations from a re-analysis of the deposited data

How the results depend on the processing

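Under 13 alternatives, 0 of 245 histone values passed the threshold in either direction; 9 of the 19 probe sets changed sign, always with an array left out, where the lone array of a genotype is assumed to vary like the other group. With an array left out, H1f2 1416101_a_at ran from -0.11 to 0.049, H2ac19 1418366_at from -0.32 to 0.016, H2aj from -0.25 to 0.14, H2aw 1435866_s_at from -0.15 to 0.061, H2az1 1438091_a_at from -0.043 to 0.13, H2az1 1438092_x_at from -0.38 to 0.18, H2bc22 from -0.22 to 1.43, H3c7 from -0.068 to 0.43 and Macroh2a2 from -0.27 to 0.060. H1f2 1436994_a_at stayed between -0.46 and -0.34 (smallest limma adjusted p 0.0970), H2bc21 between -0.62 and -0.31 (0.158) and between -0.85 and -0.41 (0.0860), and H2az2 1428029_a_at between 0.15 and 0.21.

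The replication-dependent median ran from -0.27 to -0.057 with an array left out and was -0.036 with 1 probe set per gene; the replacement median ran from -0.081 to 0.10, was -0.0078 with H2ax moved or with Present calls on all 4 arrays, and was 0.041 without probe sets marked as cross-matching. Over the whole array, 73 higher and 183 lower calls became 7 and 30 with no filter on detection, 4 and 19 without a variance trend, and 48 to 222 and 110 to 428 with an array left out; the cause was not tested. Deviations of arrays with the same number correlated at -0.0113, which gives no sign that the numbers pair the pools; a replicate block gave 271 higher and 450 lower calls, 0 histone calls, and 1 call each in the histone mRNA processing list (Ncbp1) and the S phase list (Pola2). With 2 arrays per group, small differences are not resolved, and probe sets that were dim or Absent have little signal over background.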
